A study of Mus musculus with 6 samples.

Results

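The genes described here are 5 glucose transporters of the SLC2A family (SLC2A1, SLC2A3, SLC2A6, SLC2A10 and SLC2A12), 4 monocarboxylate transporters of the SLC16A family (SLC16A1, SLC16A3, SLC16A7 and SLC16A8) and BSG, which encodes basigin. They were taken by symbol from the expression table, and all 10 of the 10 listed genes had a row among 16191 rows. The labels describe 6 libraries of poly(A) RNA from RPE-choroids of C57BL/6J mice, the retinal pigment epithelium (RPE) together with the vessel layer beneath it, taken 4 weeks after subretinal injection of an adeno-associated virus (AAV). The vector carried GFP in the 3 libraries labelled AAV-GFP and human PDGF-D in the 3 labelled AAV-PDGF-D. Per the study's methods, the human VMD2 promoter limits expression from the PDGF-D vector to the RPE, and so to 1 of the cell types in the dissected tissue. The study bought its C57BL/6J mice as young adults, but the sources used here do not give the age at injection or the sex of those behind these libraries, nor whether each library is a mouse of its own, so the p-values measure only the spread between these libraries.

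The table does not match the labelled species. Of its rows, 15504 carry a human Ensembl ID and symbol and 687 are named as new human genes, and 0 IDs match the mouse annotation. The row of human PDGFD, the gene in the vector, was between 6.56 and 6.87 FPKM in the AAV-GFP libraries and between 5.24 and 6.36 FPKM in the AAV-PDGF-D libraries, so it was not higher with the label AAV-PDGF-D. FPKM divides the fragments of a gene by its length and by the size of the library, which lets levels of different genes be set side by side. The number of reads behind a library is unknown. Of 15 RPE genes listed as markers, 11 reached 1 FPKM in every one of the 6 libraries, where 10961 of all 16191 rows did. However, RPE65, the retinoid isomerase that defines the RPE in the eye, had a mean of 0.869 FPKM and BEST1 of 0.424 FPKM. The hemoglobin gene HBA1 stood at 168 FPKM in replicate 1 of AAV-GFP, and 219 FPKM were found in replicate 3 of AAV-PDGF-D, while the other 4 libraries had at most 0.319 FPKM. Libraries are therefore called by their labels, and the values describe the rows of this table.

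In the eye, glucose from the choroidal blood crosses the RPE mainly through GLUT1, the product of SLC2A1, on its way to the photoreceptors. Photoreceptors turn much of this glucose into lactate, which the RPE takes up at its retinal face through MCT1 (SLC16A1) and releases towards the choroid through MCT3 (SLC16A8). Basigin is the partner that brings MCT1, MCT3 and MCT4 (SLC16A3) to the plasma membrane. MCT4 exports lactate from glycolytic cells, and cultured RPE cells that lose their differentiated state are known to lose MCT3 and gain MCT4.

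Mean levels of the 10 genes ran from 0.824 to 1077 FPKM, a far wider span than any of them showed between the labels. BSG had the highest mean level over the 6 libraries, at 1077 FPKM, followed by SLC2A1 at 238 FPKM, SLC16A3 at 146 FPKM, SLC16A1 at 73.0 FPKM and SLC2A6 at 30.7 FPKM. In each of these steps the higher gene was higher in 6 of 6 libraries, and the ranges did not overlap. SLC2A10 and SLC2A3 came next, at 6.51 and 6.36 FPKM, with overlapping ranges. They were followed by SLC2A12 at 4.25 FPKM, SLC16A7 at 2.56 FPKM and SLC16A8 at 0.824 FPKM. SLC16A7 was above SLC16A8 in 6 of 6 libraries although the ranges of both genes over all libraries overlapped. Within the summed FPKM of the 5 glucose transporters, SLC2A1 made up between 81.1% and 85.3% in every library. Within the 4 lactate transporters, SLC16A3 made up between 61.4% and 67.9% and SLC16A1 between 30.5% and 36.9%, so SLC16A3 was the leading gene in all 6 libraries.

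To ask whether these genes differed between the labels, the libraries were compared with limma on log2(FPKM + 0.1). The Benjamini-Hochberg adjustment covered the 13821 rows whose mean reached 0.1 FPKM. Calls needed an adjusted p not above 0.1, a 1.5-fold change or more and a mean FPKM of 1 or more. By this rule 0 of the 9 members with that mean were called higher and 0 lower, where 2.01% of 11444 rows were called higher and 1.75% lower. At an unadjusted p under 0.05 limma gave 3 members higher and 3 lower, where 21.3% and 13.1% of rows tested were. On the adjusted p alone, SLC2A3, SLC2A6 and SLC16A1 were higher with AAV-PDGF-D (3 of 10, against 18.1% of 13821 rows tested), and SLC2A10 and SLC16A8 were lower (2 of 10, against 10.7% of rows), and 28.7% of rows passed in either direction. The groups did not overlap for those 5 genes, nor for SLC2A1 and BSG, which were lower, making 3 members higher and 4 lower without overlap where 24.1% and 15.7% of rows tested were. With 3 libraries a group, the smallest p of an exact permutation test is 0.1. The scaling of the libraries was also changed in 3 ways, to TPM, by median of ratios, and to 55 nuclear-encoded genes of the respiratory chain. Of those 55 genes, 16 themselves passed the adjusted p with higher levels and 0 with lower ones. Their median log2 fold change was 0.14, against 0.04 over all rows that could be called. Scaling to them therefore lowers the log2 fold changes of the other genes.

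**Figure D1:**
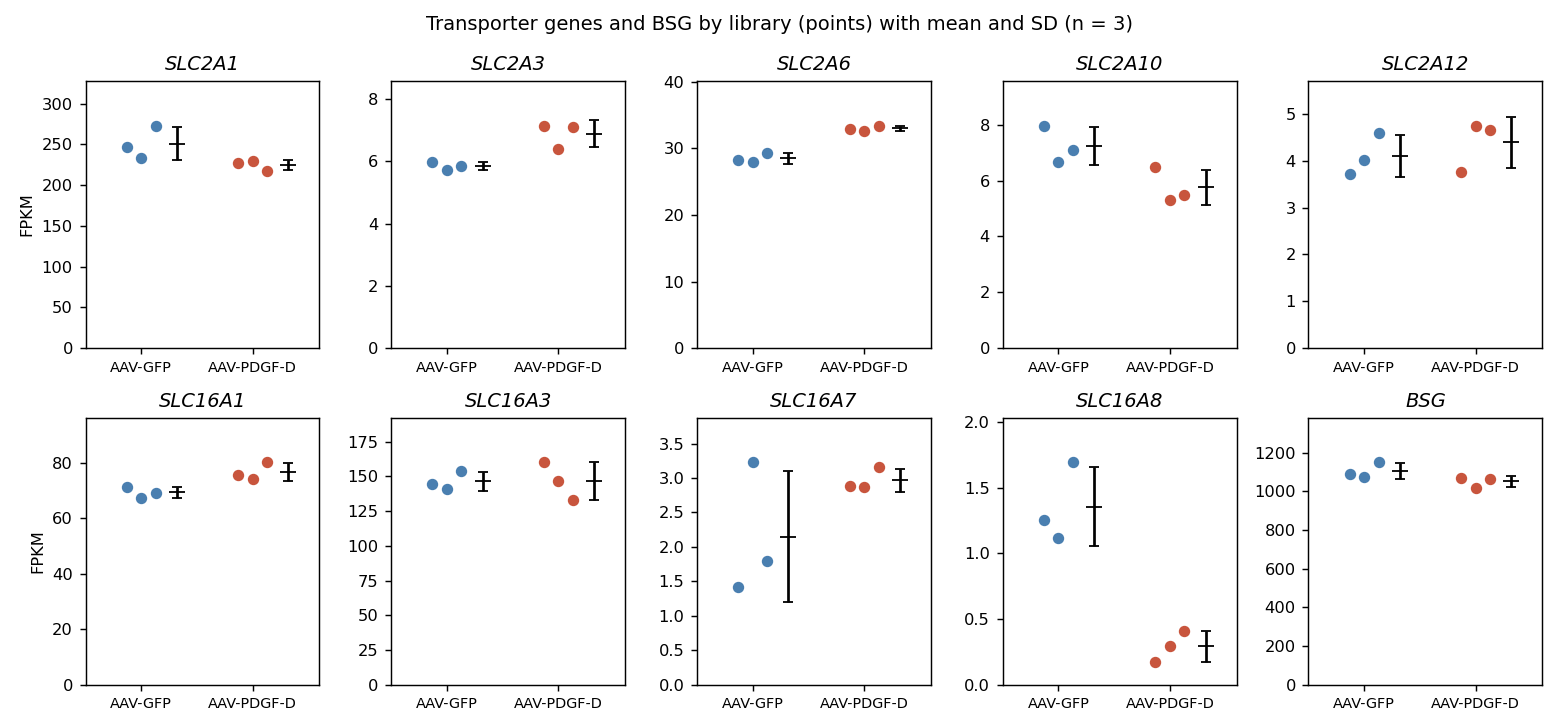
FPKM (linear axis from 0) of each member in the 3 AAV-GFP (blue) and 3 AAV-PDGF-D (red) libraries, ordered by replicate number from left to right, with the group mean and SD (n = 3) in black. SLC16A8 is the member with the largest ratio between the group means, with 1.12 to 1.69 FPKM against 0.173 to 0.406 FPKM, while the points of SLC16A3 overlap between the groups.

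Among the lactate transporters, SLC16A8 stood apart. This gene for MCT3, known in vertebrates mainly from the RPE and choroid plexus, was at 1.25, 1.12 and 1.69 FPKM in AAV-GFP replicates 1 to 3 and at 0.173, 0.297 and 0.406 FPKM in AAV-PDGF-D replicates 1 to 3. Every AAV-PDGF-D library was thus below every AAV-GFP library. The means were 1.36 ± 0.300 and 0.292 ± 0.117 FPKM (SD, n = 3 each), a log2 fold change of -1.92 with a SE 0.28 and a 95% interval from -2.57 to -1.27 (limma adjusted p = 0.00437). On that scale SLC16A8 was 3.78-fold lower. It passed the adjusted p and the fold change, as 2.32% of rows tested did in that direction and 2.4% in the other, but was not called because its mean of 0.824 FPKM was below the minimum. At such low FPKM the size of the change depends on the pseudocount, and it was -0.86 with a pseudocount of 1 and -2.23 with 0.01.

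Of the 15 listed RPE genes, 5 passed the adjusted p with lower levels and 1 with a higher level, where 10.7% and 18.1% of rows tested did. Of the 12 that could be called, 2 were called lower and 0 higher, beside 1.75% and 2.01% of all rows that could be called. PMEL, a melanosome matrix protein, had 66.3 ± 11.0 and 36.7 ± 1.13 FPKM (SD, n = 3 each), with a log2 fold change of -0.84. TYRP1, an enzyme of melanin synthesis, was at 25.0 ± 6.34 and 14.0 ± 0.877 FPKM (SD, n = 3 each), with a log2 fold change of -0.80. OTX2, a transcription factor of the RPE, passed the adjusted p with -0.30, as did SERPINF1 (-0.33) and CRIM1 (-0.12). KRT8, a keratin, passed it in the other direction with 0.19. MITF (0.07) and EZR (0.09) were also higher without overlap but missed the adjusted p. In all, 3 of the 15 were higher and 5 lower without overlap, where 24.1% and 15.7% of rows tested were. The groups overlapped for RPE65, with means of 1.04 ± 0.250 and 0.700 ± 0.128 FPKM (SD, n = 3 each). They also overlapped for RLBP1 (log2 fold change -0.0048), MERTK (-0.02), BEST1 (-0.07), KRT18 (0.10), TTR (-0.11) and LRAT (-0.51). The summed level of all 15 RPE genes, most of it from KRT8, KRT18 and EZR, was between 3429 and 3581 FPKM with AAV-GFP and between 3604 and 3682 FPKM with AAV-PDGF-D. In bulk RNA, fewer cells of a type and less RNA per cell cannot be told apart, and the part of cell composition in the SLC16A8 difference was not tested.

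SLC16A3, the gene for MCT4, was at 144, 141 and 154 FPKM in the AAV-GFP libraries. In the AAV-PDGF-D libraries it was at 160.2, 146 and 133 FPKM. The means of 146 ± 6.69 and 147 ± 13.4 FPKM (SD, n = 3 each) were nearly equal, and the 95% interval of the log2 fold change ran from -0.16 to 0.16 (limma adjusted p = 0.997). A change of 1.5-fold in either direction lies outside that interval. FPKM of SLC16A3 relative to SLC16A8 in the same library, a ratio that does not depend on library scaling, was 115, 126 and 90.9 with AAV-GFP and 928, 493 and 328 with AAV-PDGF-D. All 3 AAV-PDGF-D ratios exceeded those of AAV-GFP, as SLC16A8 was lower while SLC16A3 stayed near its level. With 0.1 added to each FPKM, the difference in log2 ratio was 1.92 (exact permutation test p = 0.1, two-sided, the smallest it can give). Unlike the plain ratio, this difference depends on the pseudocount and, for a gene as low as SLC16A8, on scaling. It was 0.86 with a pseudocount of 1 and 2.23 with 0.01.

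SLC16A1, the gene for MCT1, was at 71.4, 67.4 and 69.1 FPKM with AAV-GFP and at 75.6, 74.1 and 80.2 FPKM with AAV-PDGF-D. The groups did not overlap, but the difference was small, with a log2 fold change of 0.14 (SE 0.05, limma adjusted p = 0.0686) and a 95% interval from 0.03 to 0.25, all of it under the 1.5-fold threshold. With scaling to the respiratory chain genes the SLC16A1 log2 fold change was 0.0021, and its adjusted p was above 0.1 under all 3 scalings and without replicate 2 of AAV-GFP, replicate 3 of AAV-GFP or replicate 3 of AAV-PDGF-D (0.149 to 0.183). Relative to SLC16A3 in the same library the groups overlapped (difference in log2 ratio 0.15, exact permutation test p = 0.3, two-sided).

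SLC16A7 encodes MCT2, a high-affinity carrier that takes up lactate and pyruvate in neurons and other cells, with embigin as its usual partner. It was at 1.42, 3.23 and 1.80 FPKM with AAV-GFP and at 2.88, 2.86 and 3.15 FPKM with AAV-PDGF-D. replicate 2 of AAV-GFP lay above all 3 AAV-PDGF-D libraries, while the other 2 AAV-GFP libraries lay below them. The log2 fold change was 0.53 with a SE 0.26 and a 95% interval from -0.07 to 1.12 (limma adjusted p = 0.19). Without replicate 2 of AAV-GFP it was 0.85 and SLC16A7 was called higher (limma adjusted p = 0.0162), so this 1 library decided the call. Without replicate 1 of AAV-GFP it was 0.28.

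BSG, the chaperone of these carriers, was at 1087, 1072 and 1150.2 FPKM with AAV-GFP. It was at 1070.1, 1019 and 1063 FPKM with AAV-PDGF-D. The groups did not overlap, though the gap between replicate 2 of AAV-GFP and replicate 1 of AAV-PDGF-D was small. The BSG log2 fold change was -0.07 (SE 0.05, limma adjusted p = 0.325), with a 95% interval from -0.18 to 0.04. With scaling to the respiratory chain genes BSG was at -0.21 and passed (limma adjusted p = 0.0393). Set against BSG within a library, SLC16A1 was higher in all 3 AAV-PDGF-D libraries than in any AAV-GFP library, with a difference in log2 ratio of 0.21 (exact permutation test p = 0.1, two-sided, the smallest it can give).

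The 5 glucose transporters did not share a direction, and limma called 0 of them. SLC2A1, which encodes the basal glucose transporter GLUT1, was at 247, 233 and 273 FPKM with AAV-GFP and at 227, 229 and 218 FPKM with AAV-PDGF-D. The AAV-PDGF-D libraries lay below the others, with means of 251 ± 20.4 and 225 ± 6.05 FPKM (SD, n = 3 each). The log2 fold change of SLC2A1 was -0.16 (SE 0.06, limma adjusted p = 0.109), which missed the threshold narrowly, and its 95% interval ran from -0.30 to -0.02. SLC2A1 passed the adjusted p under each of the 3 scalings (-0.19, -0.19 and -0.30), with only rows of mean 1 FPKM or more tested, and without replicate 2 of AAV-GFP (-0.21), yet never the fold change.

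SLC2A6 encodes GLUT6, a transporter held mostly inside the cell on lysosomal membranes. It was at 28.2, 27.9 and 29.4 FPKM with AAV-GFP and at 32.9, 32.7 and 33.4 FPKM with AAV-PDGF-D. The spread within each group was small against the gap between them. SLC2A6 had a log2 fold change of 0.21 (SE 0.05, limma adjusted p = 0.0187) with a 95% interval from 0.10 to 0.32. The adjusted p held when any 1 library was left out, but not with scaling to the respiratory chain genes, where the SLC2A6 log2 fold change was 0.07 (limma adjusted p = 0.495).

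SLC2A3, for the high-affinity transporter GLUT3 of neurons, was at 5.97, 5.70 and 5.85 FPKM with AAV-GFP and at 7.15, 6.39 and 7.11 FPKM with AAV-PDGF-D. Its log2 fold change was 0.23 (SE 0.08, limma adjusted p = 0.082). SLC2A3 is nearly identical to SLC2A14, which was not analysed here, so how reads were shared between both is uncertain. Its adjusted p was above 0.1 under all 3 scalings and in 5 of the 6 fits without 1 library, the exception being without replicate 2 of AAV-PDGF-D (0.0881).

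SLC2A10 encodes GLUT10, which is mutated in arterial tortuosity syndrome and also carries dehydroascorbate, the oxidised form of vitamin C. It was at 7.97, 6.65 and 7.11 FPKM with AAV-GFP and at 6.47, 5.32 and 5.50 FPKM with AAV-PDGF-D. All AAV-PDGF-D libraries were lower, although replicate 1 of AAV-PDGF-D lay close to replicate 2 of AAV-GFP. The SLC2A10 log2 fold change was -0.33 (SE 0.11, limma adjusted p = 0.0661). Its adjusted p exceeded 0.1 without replicate 1 of AAV-GFP, replicate 3 of AAV-GFP, replicate 2 of AAV-PDGF-D or replicate 3 of AAV-PDGF-D, with a highest value of 0.182.

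SLC2A3 and SLC2A10 exchanged places between the labels. SLC2A10 was the higher gene in 3 of 3 AAV-GFP libraries and in 0 of 3 AAV-PDGF-D libraries. The ratio of SLC2A3 to SLC2A10 was 0.749, 0.857 and 0.822 in the AAV-GFP libraries and between 1.10 and 1.29 in the 3 AAV-PDGF-D libraries. The difference in log2 ratio was 0.56. With the groups apart, the exact permutation test (two-sided) could only give its smallest p of 0.1. This pair was chosen after the values were seen, so that p lends no support to the difference. The ratio of SLC2A1 to SLC2A3 also lay apart, at 41.4, 40.8 and 46.7 with AAV-GFP and 31.8, 35.9 and 30.6 with AAV-PDGF-D (difference in log2 ratio -0.39, exact permutation test p = 0.1, two-sided).

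SLC2A12 encodes GLUT12, first described in breast cancer cells and skeletal muscle. It was at 3.71, 4.01 and 4.59 FPKM with AAV-GFP and at 3.76, 4.75 and 4.66 FPKM with AAV-PDGF-D, and the groups overlapped. The log2 fold change of 0.09 had a 95% interval from -0.20 to 0.39 (limma adjusted p = 0.65). Summed over the 5 glucose transporters, the level was 297 ± 21.7 FPKM with AAV-GFP and 275 ± 5.39 FPKM with AAV-PDGF-D (SD, n = 3 each), and between the groups the ranges of 277 to 320.0 and 269 to 278 FPKM overlapped.

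**Figure D2:**
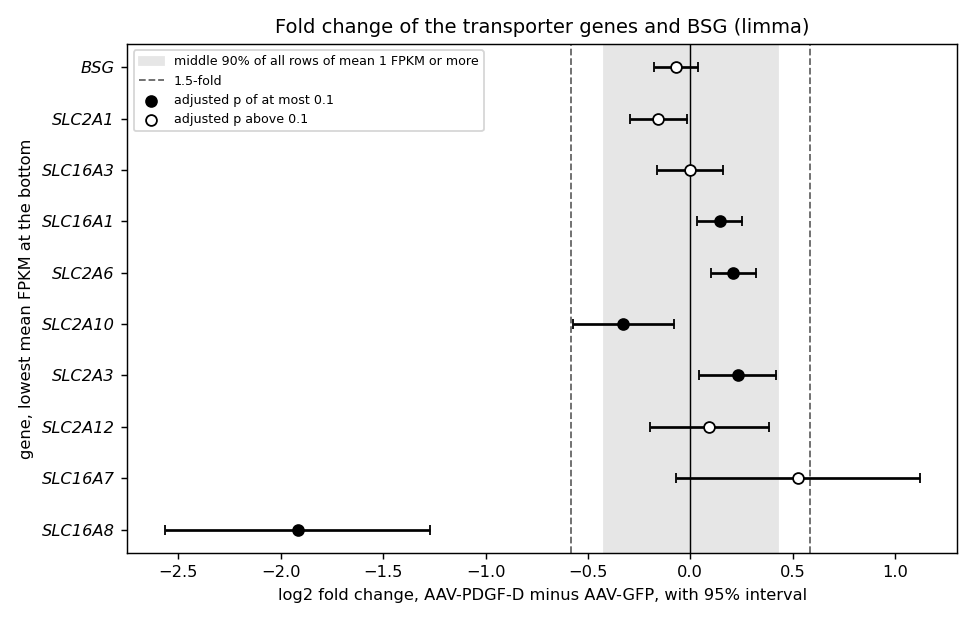
Log2 fold change of each member (AAV-PDGF-D minus AAV-GFP, points) with the 95% interval from limma (bars), ordered by mean FPKM. Filled points passed the adjusted p of 0.1, the dashed lines mark 1.5-fold and the grey band holds the middle 90% of rows whose mean reached 1 FPKM. SLC16A8, at -1.92, is the member beyond the dashed lines.

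Human red blood cells carry GLUT1, MCT1 and basigin, so the 2 libraries with hemoglobin reads were examined for these genes. In replicate 1 of AAV-GFP, SLC2A1 and BSG lay between the other AAV-GFP libraries, while SLC16A1 was the highest of its group at 71.4 FPKM. In replicate 3 of AAV-PDGF-D, SLC2A1 was the lowest of all 6 libraries at 218 FPKM, SLC16A1 was the highest at 80.2 FPKM, and BSG lay between the others of its group. Without both libraries, the log2 fold change of SLC16A8 was -2.17 and still passed the adjusted p (0.0428 from limma), with 2 libraries a group. The other 4 members past the adjusted p lost it, with adjusted p of 0.141 to 0.333 and log2 fold changes of 0.19 for SLC2A6, 0.22 for SLC2A3, 0.13 for SLC16A1 and -0.23 for SLC2A10. Of the other cell type lists, the summed level was lower with AAV-PDGF-D for 6 fibroblast genes (192 to 209.9 against 214 to 257 FPKM) and 7 genes of pericytes and smooth muscle cells (1781 to 1863 against 1892 to 2058 FPKM). The same held for 8 endothelial genes (32.4 to 37.2 against 39.6 to 40.2 FPKM). Nearly all of the endothelial sum came from EGFL7 and KDR, at means of 27.3 and 9.06 FPKM. CLDN5, the next highest, had a mean of 0.418 FPKM and PECAM1 of 0.167 FPKM. The summed level was higher with AAV-PDGF-D for the 6 macrophage genes with a row (21.3 to 22.5 against 18.4 to 20.8 FPKM). Nearly all of it was CD68, with PTPRC at a mean of 0.0315 FPKM. CSF1R, a macrophage receptor, was the 1 gene of that list called, and it was lower, at 1.46 ± 0.369 and 0.697 ± 0.110 FPKM (SD, n = 3 each). The highest gene of the pericyte and smooth muscle list, TAGLN, had a mean of 1495 FPKM and that of the fibroblast list, COL1A1, of 140.1 FPKM. For both the groups overlapped. Of the 6 fibroblast genes, 4 passed the adjusted p with a lower level (COL1A2, COL3A1, DCN and LUM) and 0 with a higher one. PDGFRA was higher without overlap, with a log2 fold change of 0.21 (limma adjusted p = 0.113). Of the pericyte and smooth muscle list 1 gene, DES, passed the adjusted p with a higher level and 2, PDGFRB and ACTA2, with a lower one. MYH11, of the same list, had a mean of 0.0171 FPKM. Over all rows tested, 18.1% passed with a higher level and 10.7% with a lower one. The rods and cones list overlapped, at 4.37 to 6.07 FPKM, most of it PDE6B at a mean of 4.48 FPKM. The part of these cell types in the differences above was not tested.

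Genes related to the transporters were followed in lists chosen by function, with 88 genes, of which 80 had a row and 55 could be called. Among these 55, 3 were called higher and 1 lower, beside 2.01% and 1.75% of all rows, and their median log2 fold change was 0.12 against 0.04 over all rows that could be called. In the SLC2A family, 0 of 3 further members that could be called passed the adjusted p in limma, and 0 an unadjusted p of 0.05. The row of SLC2A11, for the fructose and glucose transporter GLUT11, was at 495 ± 23.5 and 521 ± 32.4 FPKM (SD, n = 3 each), above SLC2A1. SLC2A11 neighbours the highly expressed MIF in the human genome and MIF was not analysed here, so which gene these reads came from is uncertain. SLC2A8, an intracellular sugar transporter, was at 7.98 ± 1.23 and 9.53 ± 1.55 FPKM (SD, n = 3 each). Sodium-coupled carriers were near 0, with SLC5A12, a lactate carrier of the kidney, the highest of 6 at a mean of 0.0819 FPKM and SLC5A4 at 0.0686 FPKM.

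Of 6 further SLC16 members that could be called, limma called 0. At an unadjusted p under 0.05 it gave 3 higher and 0 lower of the 8 tested, where 21.3% and 13.1% of rows tested were. The most abundant were SLC16A4 at a mean of 14.2 FPKM and SLC16A5 at 7.69 FPKM, and neither passed the adjusted p. The same 3 genes, SLC16A6, SLC16A13 and SLC16A14, passed the adjusted p with higher levels, as 18.1% of rows tested did. SLC16A14 could not be called at its mean of 0.369 FPKM. The partner proteins differed from each other. EMB, which encodes embigin, was at 19.4, 20.4 and 19.9 FPKM with AAV-GFP and at 24.3, 25.2 and 27.2 FPKM with AAV-PDGF-D, without overlap. Its log2 fold change of 0.36 (SE 0.06, limma adjusted p = 0.0069) was under the fold threshold. NPTN, for the related neuroplastin, was at 57.9 ± 1.71 and 59.9 ± 3.81 FPKM (SD, n = 3 each), missing the adjusted p.

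The enzymes that make and use lactate and pyruvate, hexokinases among them, held 2 called genes among 9 that could be called. Both were higher, beside 2.01% of all rows called higher and 1.75% lower. Of the 12 tested, 7 passed the adjusted p with higher levels and 1 with a lower one, where 18.1% and 10.7% of rows tested did. The median log2 fold change of the 9 was 0.29, against 0.04 over all rows that could be called. LDHA, the lactate dehydrogenase subunit favoured in glycolytic cells, rose from 74.6 ± 3.72 to 130.3 ± 6.35 FPKM (SD, n = 3 each), a log2 fold change of 0.80 (SE 0.05, limma adjusted p = 0.000341). LDHB, the subunit of oxidative tissue, was the more abundant at 610 ± 7.65 and 728 ± 12.2 FPKM (SD, n = 3 each), and passed the adjusted p with 0.25 but not the fold change. MPC1, a subunit of the mitochondrial pyruvate carrier, rose with a log2 fold change of 0.59 (limma adjusted p = 0.00677), just past the threshold. That call was lost with all 3 scalings (0.45 to 0.56), with a pseudocount of 1 (0.54) and without replicate 2 of AAV-GFP, replicate 3 of AAV-GFP, replicate 2 of AAV-PDGF-D or replicate 3 of AAV-PDGF-D (0.51 to 0.58). It was also lost without both libraries with hemoglobin reads (0.55).

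Proteins that handle the acid carried with lactate included 1 called gene among 5 that could be called, and it was higher, beside 2.01% of all rows that could be called. CA12, a carbonic anhydrase on the outer cell surface, rose from 7.55 ± 0.280 to 13.8 ± 0.517 FPKM (SD, n = 3 each), a log2 fold change of 0.86 (SE 0.07, limma adjusted p = 0.000572). The anion exchanger SLC4A2 passed the adjusted p with -0.23 and the bicarbonate carrier SLC4A7 did not, at 0.13. Of 13 hypoxia-induced genes that could be called, 1 was called, and it was lower, beside 1.75% of all rows that could be called. Of the 14 tested, 2 passed the adjusted p in each direction, where 18.1% of rows tested passed with higher levels and 10.7% with lower ones. NDRG1 was at 3.64 ± 0.405 and 2.15 ± 0.284 FPKM (SD, n = 3 each), with a log2 fold change of -0.73 (SE 0.14, limma adjusted p = 0.0105), which was -0.56 and not called with a pseudocount of 1. LOX, a collagen cross-linking enzyme, and BNIP3L, a mitophagy receptor, led this list in level at 80.9 and 50.2 FPKM, with log2 fold changes of 0.09, which missed the adjusted p, and -0.16, which passed it. The 2 that passed with higher levels were P4HA1, a collagen prolyl hydroxylase subunit, at 0.45 and PFKFB4, a regulator of glycolysis, at 0.43. Among the transcription factors of these genes, limma called 0 of the 7 that could be called. Of the 8 tested, 2 were higher and 1 lower at an unadjusted p under 0.05, where 21.3% and 13.1% of rows tested were. HIF1A, the oxygen-regulated factor that drives SLC2A1 and SLC16A3, was at 139 ± 5.09 and 166 ± 7.51 FPKM (SD, n = 3 each) with a log2 fold change of 0.26 (limma adjusted p = 0.0107), and EPAS1 was at 88.4 ± 0.488 and 89.8 ± 1.74 FPKM (SD, n = 3 each). Of the genes for trafficking of glucose transporters, limma called 0 of 9. At an unadjusted p under 0.05 it gave 4 higher and 1 lower, where 21.3% and 13.1% of rows tested were. GIPC1, which binds the tail of GLUT1, had a log2 fold change of 0.02 and CLTC, the clathrin heavy chain, one of 0.31 that passed the adjusted p. For the vitamin C transporter SLC23A2 it was 0.12, while SLC23A1 had a mean of 0.0750 FPKM.

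**Figure D3:**
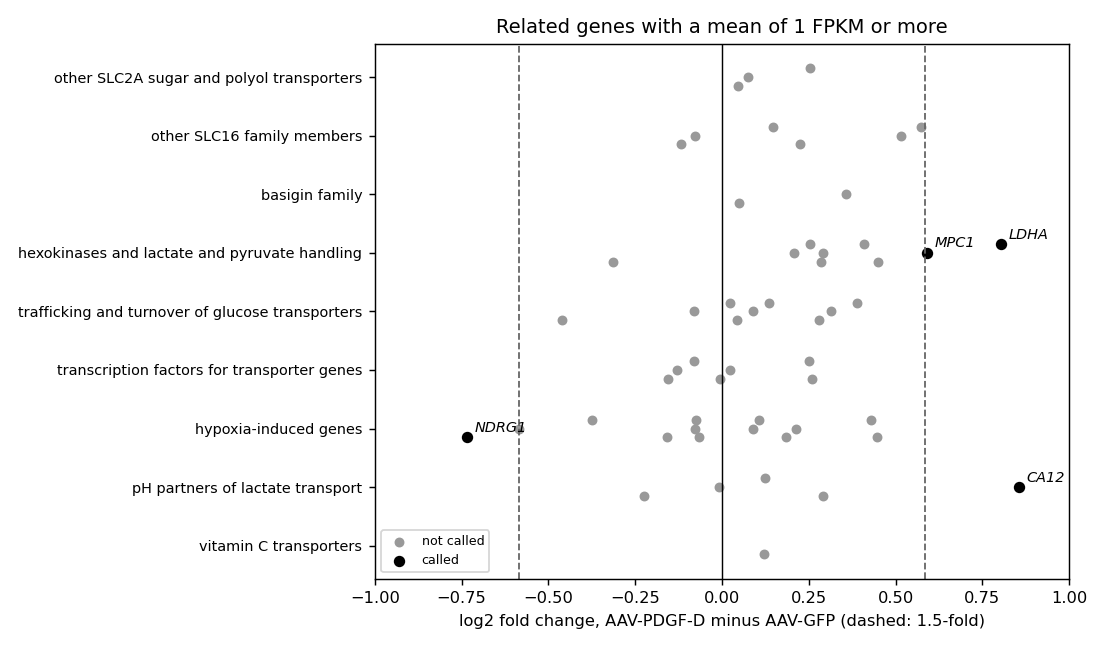
Log2 fold change (AAV-PDGF-D minus AAV-GFP) of the related genes with a mean of at least 1 FPKM, 1 point per gene, grouped by list. Black points were called and the dashed lines mark 1.5-fold; LDHA, MPC1 and CA12 lie to the right and NDRG1 to the left, at 0.80, 0.59, 0.86 and -0.73.

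Rows whose profile over the 6 libraries was most like that of a member were found by the root mean square distance between log2(FPKM + 0.1) values centred on each gene's mean. For SLC16A7, the member with the largest fold change among those with a mean of at least 1 FPKM, the nearest of 11443 rows were TMEM70 at a distance of 0.14, DLEU1 at 0.16 and an unnamed new gene at 0.16. For SLC16A8, a choice made after its values were seen, they were WFDC1 at 0.26, IL6 at 0.35 and PRSS12 at 0.44, with log2 fold changes of -1.58, -1.45 and -1.23. These distances describe likeness over 6 libraries only.

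**Figure D4:**
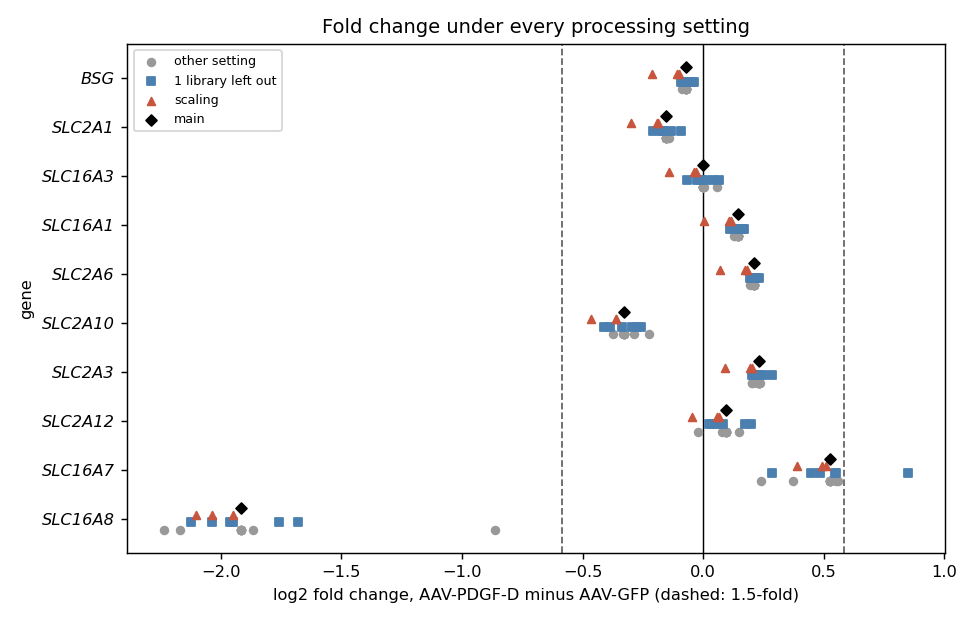
Log2 fold change of each member (AAV-PDGF-D minus AAV-GFP) under the main setting (diamonds), 3 other scalings (triangles), with 1 library left out (squares) and under the other settings (circles); the dashed lines mark 1.5-fold. SLC16A8 lies between -2.23 and -0.86 in every setting that kept it, SLC16A7 reaches 0.85 without replicate 2 of AAV-GFP, and SLC16A3 lies on both sides of 0, between -0.14 and 0.07.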

How the data were processed

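The deposited table gives FPKM for each gene in 3 AAV-GFP and 3 AAV-PDGF-D libraries. The authors mapped reads with STAR 2.4.2a to mm10 and computed FPKM with RSEM 1.2.29, per the study's methods and the submitters' processing notes. The rows are human genes, and the build behind them was not given in the sources used here. No counts were used, so the count model of the study could not be run and depth per library is unknown; FPKM totals were 499393 to 518405 per library.

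The 13821 rows whose mean reached 0.1 FPKM were fitted in R 4.3.3 with limma 3.58.1, taking log2(FPKM + 0.1) and a trended variance, and p was adjusted over all of them. A fold change on this scale understates that of low genes. Calls used the thresholds of the study's methods. The script was tested on simulated data. Members and lists were chosen with earlier results of these data known. Related genes named in the text are those called, at most 4 a list, and the 2 with the highest mean in each list; others were chosen after their values were seen. Ratios of 2 genes in a library were compared with exact permutation tests on log2 values, with 0.1 added to each FPKM. Alternatives were other pseudocounts, filters, scalings, variance models and thresholds, a replicate block, and leaving out libraries.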

Additional observations from a re-analysis of the deposited data

How the results depend on the processing

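With limma, 0 members were called at the settings of the report. Without a fold threshold 3 members were called higher and 1 lower, without a mean minimum 1 lower, and with TPM scaling, where the mean of SLC16A8 passed 1, 1 lower. Leaving out 1 library gave 0 to 1 called higher. On the adjusted p alone, counted after the values were seen, 3 were higher and 2 lower. Those higher became 1 with TPM scaling, 1 with median-of-ratios scaling, 0 with respiratory chain scaling, 1 with the threshold at 0.05, 0 without both libraries with hemoglobin and 1 to 3 with 1 library left out. Those lower became 4 with respiratory chain scaling, 1 without the variance trend, 1 at an adjusted p of 0.05, 1 without both libraries with hemoglobin and 1 to 3 with 1 library left out. The respiratory chain genes used for scaling had a median log2 fold change of 0.14 themselves. Scaling to them brings this near 0 and lowers the other genes with it. The cause of the other moves was not tested.

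The SLC16A3 log2 fold change, near 0, turned to 0.0022 with array weights and 0.056 without both libraries with hemoglobin, and ran from -0.066 to 0.066 with 1 library left out. That of SLC2A12 turned to -0.046 with respiratory chain scaling and -0.020 without both libraries with hemoglobin. The difference in log2 ratio of SLC16A3 to SLC16A8 was 0.86 with a pseudocount of 1, and that of SLC2A3 to SLC2A10 was 0.45 without both libraries with hemoglobin. The other 8 members kept their direction in every setting.

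Of the related genes, 19 were called higher and 6 lower without a fold threshold, against 3 and 1. Those called lower became 0 with a pseudocount of 1, 2 with respiratory chain scaling, 2 without a mean minimum, 2 without both libraries with hemoglobin and 1 to 2 with 1 library left out. Over all rows, 53.5% of the calls were higher, against 43.8% with TPM, 43.4% with median-of-ratios and 23.9% with respiratory chain scaling, which moved the median log2 fold change from 0.04 to -0.11.

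Replicate numbers showed no pairing, with residual correlations of -0.20, 0.0039 and -0.13 for libraries of equal number. With the replicate block, 1 member was past the adjusted p and higher, in place of 3. By these correlations 0 of 3 AAV-GFP libraries were closest to the AAV-PDGF-D library of their own number. The highest value, 0.29, was between the 2 libraries with hemoglobin. At low FPKM, as for SLC16A8, the unknown depth limits the size of a fold change.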

Other observations

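Genes that act on either side of glucose entry, chosen after their values were seen, also differed between the labels. TXNIP, which is known to promote the internalisation of GLUT1, was at 17.3, 18.3 and 19.5 FPKM with AAV-GFP and at 13.2, 13.2 and 13.5 FPKM with AAV-PDGF-D, a log2 fold change of -0.46 (SE 0.06, limma adjusted p = 0.0036) that lay under the 1.5-fold threshold. The hexokinases, which trap glucose in the cell, passed the adjusted p in the other direction for HK1 (0.29), HK2 (0.45) and HKDC1 (0.29), where HKDC1 was the most abundant at a mean of 54.0 FPKM. PDK2, a kinase that inhibits pyruvate dehydrogenase, passed with -0.32. ARRDC4, a relative of TXNIP that also acts on GLUT1, differed in the other direction (0.28, limma adjusted p = 0.0745). These 6 genes were picked for their differences, and limma called 0 of them.

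Among the low SLC16 genes, SLC16A13 was at 1.86, 1.93 and 1.95 FPKM with AAV-GFP and at 2.92, 2.62 and 2.79 FPKM with AAV-PDGF-D, with a log2 fold change of 0.52 (limma adjusted p = 0.0168). SLC16A6 had 0.57 (limma adjusted p = 0.0478), just under the fold threshold. CA4, a carbonic anhydrase of the choriocapillaris with a mean of 0.434 FPKM, had a log2 fold change of -1.03 (limma adjusted p = 0.0562) and could not be called at that mean.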
